A study of Mus musculus with 8 samples.

Results

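The genes described here are the cyclins and kinases that act in the G1 phase of the cell cycle, together with an inhibitor and a substrate of those kinases. They were Ccnd1, Ccnd2 and Ccnd3 (the D-type cyclins), Ccne1 and Ccne2 (the E-type cyclins), Cdk2, Cdk4 and Cdk6 (their kinase partners), Cdkn1b (the inhibitor p27) and Rb1 (the retinoblastoma protein). Members were chosen by name: all probes carrying 1 of these 10 gene names on a 1-colour oligonucleotide array, which gave 15 of the 39429 probes and 10 of the 30175 gene names. The arrays measured mRNA in E14 mouse embryonic stem cells (ESCs), an established line, grown without feeder cells on gelatin in medium with serum and LIF. Each dish was infected with lentivirus encoding a short hairpin RNA, and RNA was taken at 72 h. The 4 groups were a control KD (knockdown) with a hairpin against EGFP, a gene these cells do not have, a Tip60 KD, an Hdac6 KD and a double KD of both, with 2 biological replicates (A and B) each, and all 4 groups, controls included, received virus. Tip60 (gene name Kat5) is the acetyltransferase of the Tip60-p400 chromatin remodelling complex, and Hdac6 is a class II deacetylase. Each gene was targeted by a single hairpin, the most effective of several that were screened, so effects of the hairpin on other transcripts were not separated from those of its target. The comparisons ask how loss of either protein, or of both, alters these mRNAs.

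In most cells, growth factors raise D-type cyclins, which bind Cdk4 or Cdk6 and start to phosphorylate Rb. Phosphorylated Rb releases E2F transcription factors, which drive cyclin E and the genes of S phase, and cyclin E with Cdk2 then completes the phosphorylation of Rb. p27 binds and inhibits cyclin E-Cdk2, and it is removed by the SCF ubiquitin ligase. ESCs are known for a short G1 phase, low levels of D-type cyclins and cyclin E activity through much of the cycle. Much of this control acts on the proteins, which these arrays did not measure. In bulk RNA, a change in the share of cells in a phase or of a type and a change in RNA per cell cannot be told apart.

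A value below is log2 of the background-corrected signal over the array's own 75th percentile, so 0 is the 75th percentile and a step of 1 is a doubling. Values under -2.71, the weakest level reliably above background on every array, were raised to it (the floor). Levels of different probes are not compared with each other, since probes differ in how brightly they bind. A gene or probe is said to have risen, fallen or been called where the limma adjusted p was under 0.1 among the 22594 probes tested.

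Of the 15 probes, 12 passed the filter, which asked for a reliable signal that exceeded the floor on 2 or more arrays, and they covered 8 of the 10 genes. The single probes for Ccne2 and Cdk6 and the second of 2 for Cdkn1b were dim. Signals of the Ccne2 probe lay between -27.0 and 88.4 units and it was well above background on 5 of 8 arrays, while the Cdk6 probe lay between -11.9 and 56.1 units and was above background on 4 of 8. No level or change is given for those 2 genes. The 8 genes measured are followed below by the brightest probe of each, with its other probes beside it. Ccnd2 passed through its 6 knockdown arrays alone, since both control arrays lay at the floor, and a probe that passes in this way must differ from the control.

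The knockdowns were first checked on their targets. Kat5 read 1.34 and 1.37 in the controls, 0.00 and 0.01 after Tip60 KD, 1.52 and 1.53 after Hdac6 KD, and -0.11 and 0.20 after double KD, and it fell by 1.35 in Tip60 KD and by 1.31 in double KD (limma adjusted p = 0.00102 and 0.00181). Hdac6 read 2.21 and 2.18 in the controls, 1.74 and 1.77 after Tip60 KD, -0.28 and -0.32 after Hdac6 KD, and 0.30 and 0.34 after double KD. Hdac6 thus fell by 2.49 in Hdac6 KD and by 1.87 in double KD, and it also fell by 0.44 in Tip60 KD (limma adjusted p = 0.000350, 0.000738 and 0.00592). The Hdac6 level of double KD exceeded that of Hdac6 KD by 0.62 (limma adjusted p = 0.0140), so its depletion was shallower where both hairpins were used. Spots well above background ranged from 21896 to 40609 of 43020 per array, fewest on the B array of control KD. That array also set the common floor, at a scaled signal of 0.153. The median background subtracted was 61 and 114 units on the control arrays (A first), and 37.25 and 89.0 after Tip60 KD. It was 37.7 and 86.9 after Hdac6 KD, and 39.4 and 41.4 after double KD. What these background levels contributed to the results was not tested. Replicate arrays correlated at r = 0.986 to 0.989 across probes. The A arrays of all groups shared 1 slide and the B arrays another, and each group sat in the same position on both slides, so position and group cannot be told apart. ESC identity was visible in all 8 of 8 listed ESC markers, whose summed level (as a multiple of the 75th percentile) was 298 to 331. The largest part of that sum was Dppa5a, and single markers changed. In Tip60, Hdac6 and double KD, 2, 2 and 4 of 8 were called, beside 40.6%, 30.0% and 33.8% of all probes. All of these were higher except 1 in double KD. Pou5f1 rose by 1.01 in Tip60 KD and by 0.47 in Hdac6 KD (limma adjusted p = 0.00257 and 0.0433). Other cells were looked for with 4 lists. Of the fibroblast list 5 of 8 genes passed the filter (Col1a2, Postn and Fbn1 did not), with summed levels of 2.58 to 2.93 in the controls, 3.16 to 3.67 after Tip60 KD, 2.29 to 2.42 after Hdac6 KD, and 3.25 to 3.54 after double KD. The largest part of that sum was Thy1, which rose by 0.47 in Tip60 KD, while Pdgfrb fell by 1.09 in Hdac6 KD (limma adjusted p = 0.0414 and 0.00297). Of the endoderm list 2 of 6 passed the filter (Gata6, Afp, Ttr and Foxa2 did not), at 0.306 to 0.650 over all arrays. Of the trophectoderm list 3 of 6 did (Cdx2, Elf5 and Hand1 did not), at 11.2 to 12.6 in the controls, 4.82 to 5.36 after Tip60 KD, 8.96 to 9.94 after Hdac6 KD, and 5.43 to 6.47 after double KD. That sum was mostly Tfap2c, which read 3.595 and 3.409 in the controls and fell by 1.38 in Tip60 KD (limma adjusted p = 0.00131), whereas Eomes rose by 0.84 there (adjusted p = 0.00883). Of the neuroectoderm list 6 of 6 passed the filter, at 2.56 to 2.75 in the controls, 4.79 to 5.04 after Tip60 KD, 2.99 to 3.31 after Hdac6 KD, and 4.45 to 4.71 after double KD. The rise of that sum in Tip60 KD was mostly Tubb3, which read -0.42 and -0.74 in the controls and 1.35 and 1.41 there. Tubb3 rose by 1.96, whereas Sox1 changed by 0.01 (limma adjusted p = 0.000688 and 0.988). Pax6 passed the filter through its Tip60 KD arrays alone. Of the 6 genes, 2 were called in Tip60 KD (33.3%), both higher, beside 40.6% of all probes. The part of these lists in the results below was not tested.

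The sequences of 2 probes are shown, since the Ccnd2 probe moved most and the Cdk4 probe went against the other probes of its gene. The Ccnd2 probe lies at chr6:127098696-127098755 (minus strand) and the Cdk4 probe at chr10:126503162-126503221 (plus strand), both on mouse build mm9 and both within the protein-coding part of the gene.
Ccnd2 probe: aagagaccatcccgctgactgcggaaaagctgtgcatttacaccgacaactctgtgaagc
Cdk4 coding probe: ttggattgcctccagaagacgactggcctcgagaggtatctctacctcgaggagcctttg

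Upstream sequence was available in the RefSeq promoter table (build GRCm38.p6) for 6 of the 10 genes, and 3 are shown as the 250 bases before the transcription start: Ccne1, which rose in every knockdown, Cdkn1b, which fell in every knockdown, and Cdk4. Capitals mark any match to TTTNNCGC, a common form of the E2F site, searched on both strands, or to CACGTG, the E-box bound by Myc, whose letters read the same on both strands. The windows are chr7:38107491-38107740 (minus strand), chr6:134920151-134920400 (plus strand) and chr10:127063285-127063534 (plus strand).
Ccne1: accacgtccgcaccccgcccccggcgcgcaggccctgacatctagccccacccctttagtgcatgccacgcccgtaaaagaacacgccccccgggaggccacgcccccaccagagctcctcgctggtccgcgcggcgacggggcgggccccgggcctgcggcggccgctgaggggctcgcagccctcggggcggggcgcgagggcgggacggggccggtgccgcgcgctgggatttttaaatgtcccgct
Cdkn1b: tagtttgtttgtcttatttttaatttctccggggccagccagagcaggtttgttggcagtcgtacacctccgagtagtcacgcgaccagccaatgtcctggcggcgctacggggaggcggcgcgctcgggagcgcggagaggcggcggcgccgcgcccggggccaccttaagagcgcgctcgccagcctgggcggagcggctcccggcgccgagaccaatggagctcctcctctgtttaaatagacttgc
Cdk4: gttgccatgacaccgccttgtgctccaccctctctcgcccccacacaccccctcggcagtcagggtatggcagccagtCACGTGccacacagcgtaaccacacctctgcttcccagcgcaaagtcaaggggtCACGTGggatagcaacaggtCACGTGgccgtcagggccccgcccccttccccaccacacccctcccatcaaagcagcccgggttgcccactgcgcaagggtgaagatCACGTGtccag
The Cdk4 window held 4 CACGTG matches, which began 172, 118, 98 and 11 bases before the start. Of the 32851 windows of this length in the table, 6.02% held at least 1 CACGTG and 0.0213% held 4 or more, while 4.28% held TTTNNCGC. Neither motif was found in the Ccne1 and Cdkn1b windows, which says only that these letters are absent from those 250 bases. Matches to TTTNNCGC began 140 bases before the start of Cdk2 and 198 bases before that of Cdk6, which also held 1 CACGTG, and no match overlapped another motif's match. No promoter of Ccnd1, Ccnd2, Ccne2 or Rb1 was used here.

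The 3 comparisons with control KD share the same 2 control arrays, and their values are given side by side. Ccnd1 and Ccne1 rose, and the mRNAs of the brakes, p27 and Rb, fell in all 3 knockdowns. In Tip60 KD, 6 of the 8 measured members were called, 4 higher and 2 lower, where 40.6% of all tested probes were called (20.8% higher and 19.8% lower). In Hdac6 KD, 6 of 8 were called, again 4 higher and 2 lower, against 30.0% of all probes (14.9% and 15.1%). In double KD, 6 of 8 were called, 4 higher and 2 lower, against 33.8% of all probes (16.8% and 17.0%). Ccnd3 rose where Tip60 was depleted, Cdk2 rose in Hdac6 KD, and Cdk4 was called by its brightest probe in none. Ccnd2 stands among the higher genes in each of these counts by the way it passed the filter. Without it, 5 of 7 were called in each knockdown, 3 higher and 2 lower, and the median change of the 7 was -0.03 after Tip60 KD, 0.24 after Hdac6 KD and 0.02 after double KD, beside 0.07, 0.04 and 0.06 over all probes. With the slide as a replicate block, 6, 7 and 6 of 8 were called in Tip60, Hdac6 and double KD, with Cdk4 added in Hdac6 KD, beside 61.0%, 53.4% and 55.9% of all probes. Without Ccnd2, the counts with the block were 5, 6 and 5 of 7.

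**Figure D1:**
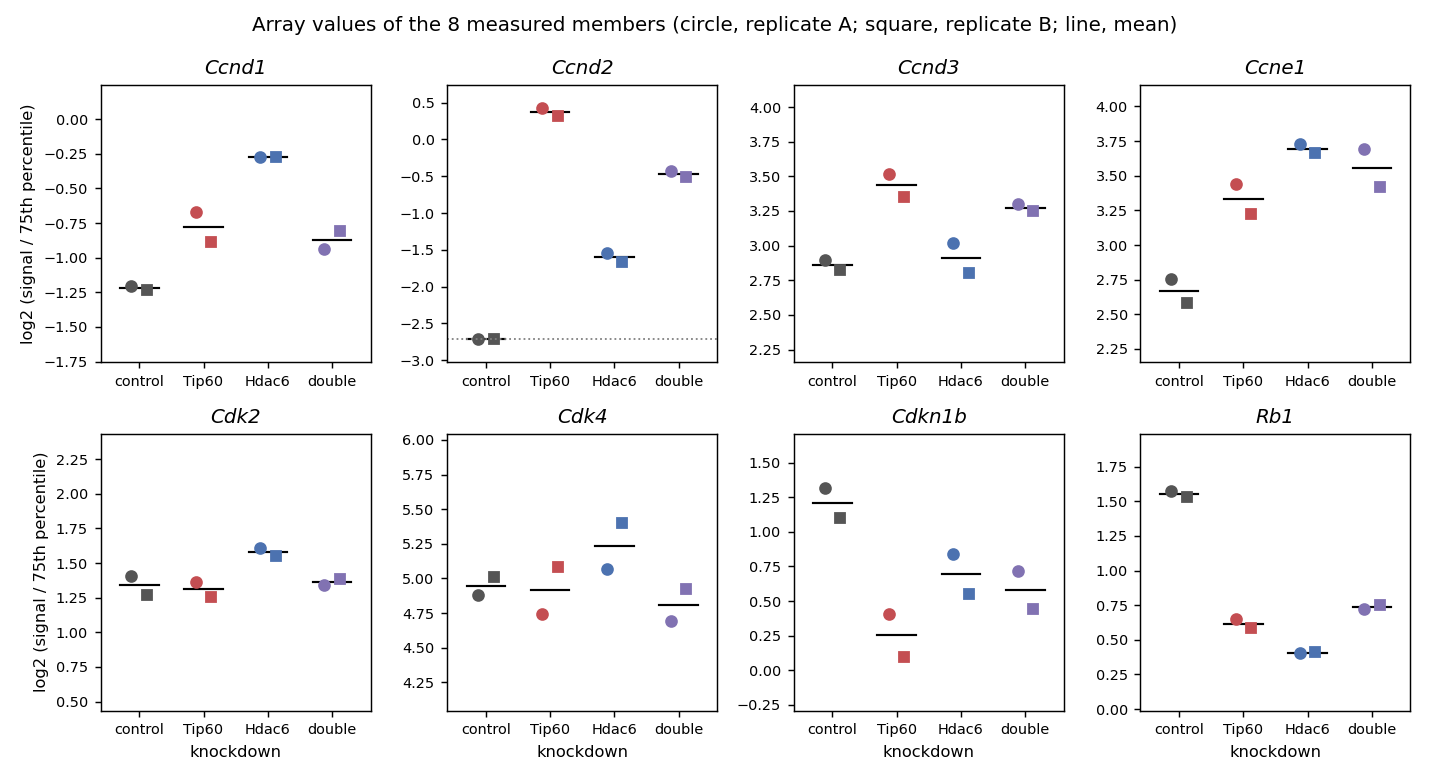
Value of each of the 8 measured members on every array (y axis, log2 of signal over the array's 75th percentile; circles, replicate A; squares, replicate B; lines, group means of 2 arrays; dotted line, the floor) in the 4 knockdown groups (x axis). Ccnd2 sits at the floor in control KD and at 0.43 and 0.32 in Tip60 KD, while Rb1 falls from 1.57 and 1.53 in control KD to 0.40 and 0.41 in Hdac6 KD. Vertical ranges differ between panels and cover at least 2 log2 units.

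Among the D-type cyclins, Ccnd2 (cyclin D2) had the widest span of the 8 measured members, 3.08 between its lowest and highest group means. Its signals were 119 and 137 units on the control arrays (replicate A first, as throughout), 2036 and 1563 after Tip60 KD, 506 and 384 after Hdac6 KD, and 998 and 798 after double KD. The control signal was well above background on 1 of the 2 arrays and under the floor on both. On the normalised scale it read -2.71 and -2.71 in the controls, 0.43 and 0.32 after Tip60 KD, -1.54 and -1.66 after Hdac6 KD, and -0.44 and -0.51 after double KD, and no group overlapped another. Measured against the floor under the main settings, Ccnd2 lay at least 3.08 above the controls in Tip60 KD (at least 8.48-fold). It lay at least 1.11 above them in Hdac6 KD and at least 2.24 above them in double KD. These are descriptions with no test, because the floor removed the spread of the controls and the filter fixed the direction. With each array's own weakest reliable signal as the floor, the changes were 3.52, 1.54 and 2.67. The lowest values under any alternative were 2.84 in Tip60 KD and 2.06 in double KD, both with normexp background correction. In Hdac6 KD the lowest was 1.02, with the replicate block and the probe GC trend removed. The order was control KD, Hdac6 KD, double KD and Tip60 KD from low to high, and the 3 knockdowns in it were all measured above the floor. The double KD lay 0.84 below Tip60 KD (limma adjusted p = 0.0374) and 1.13 above Hdac6 KD (adjusted p = 0.00501). The fit pools the spread of all 4 groups, and the control pair at the floor has none, so these p-values may be too small. With each array's own floor, the first had an adjusted p of 0.210 at an unchanged -0.84. The first of those 2 calls was lost on leaving out any 1 of the 8 arrays, with adjusted p from 0.108 to 0.223 and differences from -0.90 to -0.79.

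Ccnd1 (cyclin D1), the D-type cyclin most tied to mitogen signalling, rose most in Hdac6 KD. It read -1.20 and -1.23 in the controls, -0.67 and -0.89 after Tip60 KD, -0.27 and -0.27 after Hdac6 KD, and -0.94 and -0.81 after double KD. All knockdown arrays lay above both control arrays, and both Hdac6 KD arrays lay above all others. The change was 0.94 ± 0.10 in Hdac6 KD, 0.44 ± 0.10 in Tip60 KD and 0.35 ± 0.10 in double KD (limma adjusted p = 0.00364, 0.0196 and 0.0519). The order from low to high was control KD, double KD, Tip60 KD and Hdac6 KD. Tip60 KD lay 0.51 and double KD 0.60 below Hdac6 KD, both called (limma adjusted p = 0.0221 and 0.0320), while double KD and Tip60 KD differed by -0.09 (95% interval -0.33 to 0.15) and were not. The double KD call of Ccnd1 was lost with normexp background correction, the deposited log2 table and quantile normalisation, with changes of 0.27, 0.26 and 0.31 (adjusted p = 0.148, 0.114 and 0.143). It was also lost without either control array or without the B array of double KD, with changes of 0.36, 0.33 and 0.28 (adjusted p = 0.147, 0.166 and 0.197).

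Ccnd3 (cyclin D3), read by 2 probes, rose in Tip60 KD and in double KD. Its brighter probe (chr17:47736579-47736638, mm9) read 2.89 and 2.82 in the controls, 3.52 and 3.35 after Tip60 KD, 3.02 and 2.80 after Hdac6 KD, and 3.30 and 3.25 after double KD. Control KD and Hdac6 KD overlapped, and both Tip60 KD arrays and both double KD arrays lay above those 4. The change was 0.58 ± 0.11 in Tip60 KD and 0.42 ± 0.11 in double KD (limma adjusted p = 0.00984 and 0.0377). In Hdac6 KD it was 0.05 with a 95% interval of -0.21 to 0.31 (adjusted p = 0.807). The second probe gave 0.83, 0.51 and 0.13 for Tip60 KD, double KD and Hdac6 KD (adjusted p = 0.00218, 0.0140 and 0.405). Leaving out any 1 control or double KD array ended the double KD call of the brighter probe, with changes of 0.38 to 0.45 and adjusted p of 0.106 to 0.145.

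Ccne1 (cyclin E1), the partner of Cdk2 at the entry to S phase, rose in all 3 knockdowns by both of its probes. The brighter probe is annotated at chr7:38882937-38882960 (mm9), a span shorter than the 60 bases of the probes printed above, so this position may be incomplete. It read 2.76 and 2.58 in the controls, 3.44 and 3.22 after Tip60 KD, 3.73 and 3.66 after Hdac6 KD, and 3.69 and 3.42 after double KD. All 6 knockdown arrays lay above both control arrays. It rose by 0.66 ± 0.13 after Tip60 KD, 1.02 ± 0.13 after Hdac6 KD and 0.89 ± 0.13 after double KD (limma adjusted p = 0.0128, 0.00601 and 0.00724). The second probe rose by 1.18, 1.06 and 0.78 (adjusted p = 0.000613, 0.00173 and 0.00224). The probes thus ordered the knockdowns differently. By the brighter probe no pair of knockdowns was called, and the largest gap, Tip60 KD below Hdac6 KD by 0.36, had an adjusted p of 0.128. That gap was called with the replicate block (adjusted p = 0.0110), with quantile normalisation, with the deposited log2 table and with the stricter filter, and the block also called double KD above Tip60 KD by 0.22 (adjusted p = 0.0781). By the second probe double KD lay 0.40 below Tip60 KD and 0.28 below Hdac6 KD, both called (adjusted p = 0.0729 and 0.0978), so the probes placed double KD on opposite sides of Tip60 KD. No order of Ccne1 among the knockdowns is therefore given.

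The kinases moved less. Cdk2, which pairs with cyclins E and A, read 1.41 and 1.27 in the controls, 1.36 and 1.26 after Tip60 KD, 1.61 and 1.55 after Hdac6 KD, and 1.34 and 1.38 after double KD. Only the Hdac6 KD arrays lay apart from the others, by 0.24 ± 0.09 above control KD (limma adjusted p = 0.0995) and 0.27 above Tip60 KD (adjusted p = 0.0870). The call against control KD was lost under 16 of 22 alternative settings and on leaving out any 1 array (changes of 0.17 to 0.31, adjusted p of 0.116 to 0.310), so it stood at the edge of the threshold. The change was -0.03 in Tip60 KD (95% interval -0.24 to 0.18) and 0.02 in double KD (-0.19 to 0.23).

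Cdk4, the kinase partner of D-type cyclins, was read by 3 probes that disagreed. Its brightest probe (chr10:126504174-126504233, mm9) read 4.88 and 5.01 in the controls, 4.75 and 5.09 after Tip60 KD, 5.07 and 5.40 after Hdac6 KD, and 4.69 and 4.92 after double KD. Tip60 KD overlapped every other group, and Hdac6 KD lay above control KD and double KD. By that probe no comparison was called. In Tip60 KD it changed by -0.03 (95% interval -0.45 to 0.39), a second probe (chr10:126504279-126504338) fell by 0.30 and the coding probe printed above rose by 0.31 (limma adjusted p = 0.938, 0.0801 and 0.0295). In Hdac6 KD the 3 probes gave 0.29, 0.21 and 0.42, of which the last, the coding probe, was called (adjusted p = 0.299, 0.224 and 0.0179). In double KD they gave -0.14, -0.17 and 0.05, none called. With the slide as a replicate block, the brightest probe was called in Hdac6 KD at an unchanged 0.29 (adjusted p = 0.0231). No direction is given for Cdk4 in Tip60 KD.

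**Figure D2:**
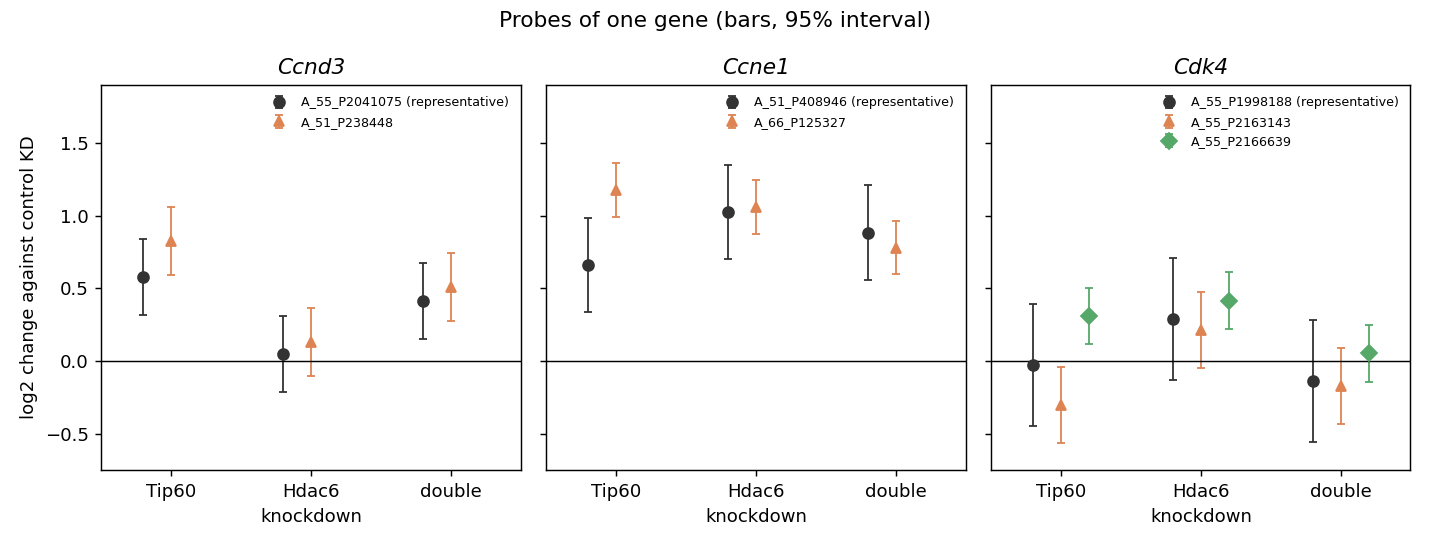
Log2 change against control KD (y axis; bars, 95% interval of the limma fit over 8 arrays) in each knockdown (x axis) for every tested probe of Ccnd3, Ccne1 and Cdk4. The 2 Ccnd3 probes keep 1 order, the Ccne1 probes differ in Tip60 KD (0.66 and 1.18), and the Cdk4 probes fall on both sides of 0 in Tip60 KD (-0.30, -0.03 and 0.31).

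Cdkn1b (p27), the inhibitor of cyclin E-Cdk2, fell in all 3 knockdowns. It read 1.319 and 1.096 in the controls, 0.41 and 0.10 after Tip60 KD, 0.84 and 0.55 after Hdac6 KD, and 0.72 and 0.44 after double KD. Both control arrays lay above all 6 knockdown arrays, and within each group the A array was the higher. It fell by 0.96 ± 0.17 in Tip60 KD, by 0.51 ± 0.17 in Hdac6 KD and by 0.63 ± 0.17 in double KD (limma adjusted p = 0.00929, 0.0909 and 0.0475). Within the slides the falls were -0.91 and -0.998, -0.48 and -0.55, and -0.60 and -0.65. With the slide as a replicate block the adjusted p was 0.000168, 0.00151 and 0.000745. Without the block, the Hdac6 KD call was lost on leaving out any 1 of the 8 arrays (-0.66 to -0.37; adjusted p of 0.101 to 0.353), and the double KD call was lost without the A array of control KD or the B array of double KD (-0.52 and -0.49; adjusted p = 0.202 and 0.197). No pair of knockdowns was called for Cdkn1b, and the widest gap, Tip60 KD below Hdac6 KD by 0.44 (95% interval -0.87 to -0.02), was called with the replicate block (adjusted p = 0.00276).

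Rb1, whose protein holds E2F factors inactive until it is phosphorylated, fell most in Hdac6 KD. Its probe (chr14:73595408-73595467, mm9) was printed in 10 spots per array, whose signals varied by 2.35 to 7.23% (coefficient of variation) within an array. It read 1.57 and 1.53 in the controls, 0.65 and 0.58 after Tip60 KD, 0.40 and 0.41 after Hdac6 KD, and 0.72 and 0.75 after double KD, and no 2 groups overlapped. It fell by 1.15 ± 0.07 in Hdac6 KD, by 0.94 ± 0.07 in Tip60 KD and by 0.82 ± 0.07 in double KD (limma adjusted p = 0.00152, 0.000852 and 0.00188), which left 45.1%, 52.2% and 56.8% of the control level. All 22 alternative settings kept these 3 calls. The double KD lay 0.33 above Hdac6 KD (adjusted p = 0.0580), a call lost on leaving out any 1 of those 4 arrays (adjusted p of 0.171 to 0.231). Hdac6 KD and Tip60 KD differed by 0.21 (adjusted p = 0.103), called with the replicate block (adjusted p = 0.0335), and Tip60 KD and double KD by 0.12 (95% interval -0.05 to 0.29).

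**Figure D3:**
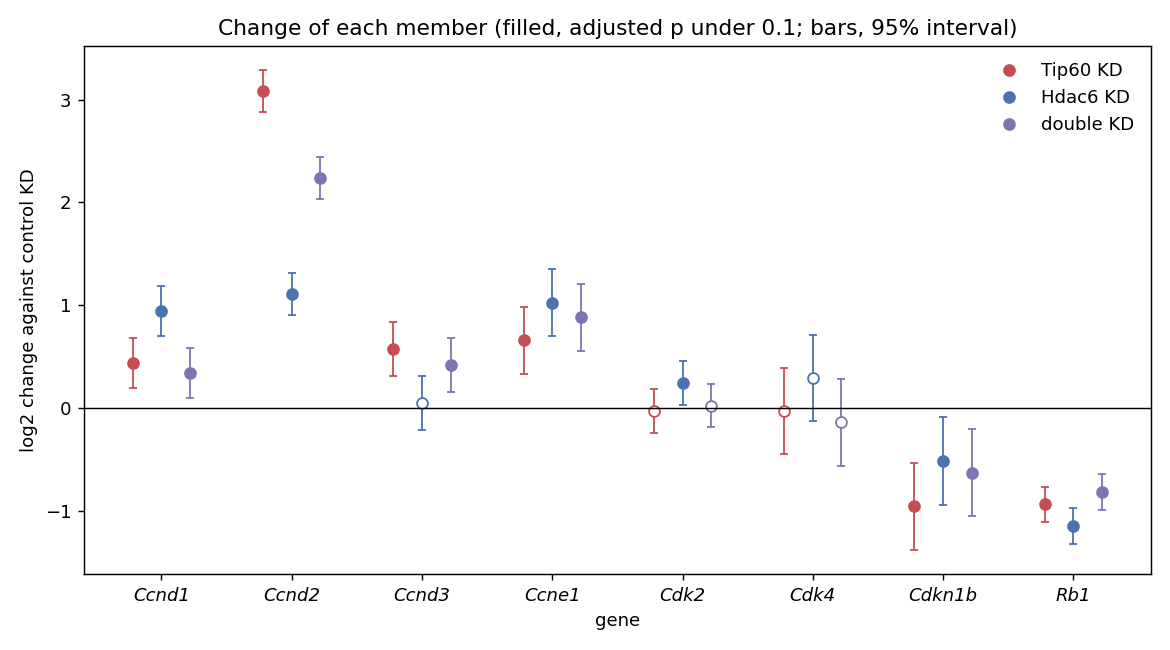
Log2 change against control KD (y axis) of the brightest probe of each measured member (x axis) in the 3 knockdowns; filled points had a limma adjusted p under 0.1 and bars are 95% intervals of the fit over 8 arrays. Ccnd1 and Ccne1 lie above 0 and Cdkn1b and Rb1 below, and Ccnd2, a lower bound under the main settings whose bars and fill are no test, reaches 3.08 in Tip60 KD.

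The knockdowns were next set against each other. In Tip60 KD less Hdac6 KD, 4 of 8 members were called, where 23.9% of all probes were: Ccnd2 lay 1.98 higher and Ccnd3 0.53 higher in Tip60 KD (limma adjusted p = 0.000937 and 0.0246), and Ccnd1 0.51 and Cdk2 0.27 lower. With the replicate block 8 of 8 were called, beside 42.4% of all probes. The 3 D-type cyclins thus did not follow 1 order, with Ccnd2 and Ccnd3 higher in Tip60 KD and Ccnd1 higher in Hdac6 KD. Between double KD and Tip60 KD, 1 of 8 members (Ccnd2) was called beside 4.73% of all probes, and 3 of 8 with the block (Ccnd2, Ccne1 and Cdkn1b) beside 27.6%. Between double KD and Hdac6 KD, 3 of 8 were called (Ccnd1, Ccnd2 and Rb1) beside 10.2%, and 6 of 8 with the block beside 29.3%. The Ccnd2 p-values in these comparisons draw on a pooled spread that includes its controls at the floor. Without Ccnd2, 3, 0 and 2 of 7 were called in these 3 comparisons, in the order given, and 7, 2 and 5 of 7 with the block. These counts use the brightest probe of each gene. In Tip60 KD less Hdac6 KD, the other Cdk4 probes gave -0.51 and, for the coding probe, -0.10 (limma adjusted p = 0.0263 and 0.489). In double KD less Hdac6 KD they gave -0.38 and -0.36 (adjusted p = 0.108 and 0.0621). The second Ccnd3 probe gave 0.70 and 0.38 in those 2 comparisons (adjusted p = 0.00846 and 0.0844). In the Tip60 KD and Hdac6 KD comparison, the call of Ccnd3 was lost without the A array of Tip60 KD or the B array of Hdac6 KD (0.44 and 0.42; adjusted p = 0.108 and 0.116), that of Ccnd1 without either Hdac6 KD array (-0.51 in both; adjusted p = 0.107 and 0.105), and that of Cdk2 without any Tip60, Hdac6 or double KD array (-0.32 to -0.22; adjusted p of 0.124 to 0.291). The Ccnd1 call between double KD and Hdac6 KD was lost without any 1 of those 4 arrays (adjusted p of 0.114 to 0.176).

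The double KD was also compared with the sum of both single changes (the interaction term of the fit). Of 8 members, 5 were called, 2 above and 3 below that sum, where 23.3% of all probes were called (11.2% above and 12.1% below). Without Ccnd2, whose term rests on controls at the floor, 4 of 7 were called. The term was -1.03 ± 0.14 for Ccnd1 and -0.80 ± 0.19 for Ccne1 (limma adjusted p = 0.0116 and 0.0416), and it was -1.95 for Ccnd2, given with no test. Rb1 and Cdkn1b, which fell in every knockdown, lay 1.27 ± 0.10 and 0.84 ± 0.25 above their summed falls (adjusted p = 0.00701 and 0.0745). In each of these 5 genes the double KD change was smaller in size than the sum of both single changes. These counts use the brightest probe of each gene. By other probes, the coding probe of Cdk4 (-0.67) and the second probe of Ccnd3 (-0.45) were also called (limma adjusted p = 0.0179 and 0.0794). The remaining Cdk4 probe gave -0.08 and the brighter Ccnd3 probe -0.21, neither called (adjusted p = 0.787 and 0.430). With the replicate block the brightest Cdk4 probe was called as well (-0.40). This made 6 of 8 members, or 5 of 7 without Ccnd2, beside 47.7% of all probes. Under the main settings the interaction of Ccnd2 is an upper bound, since a lower control level would make it more negative. The calls of Ccnd1 and Rb1 held without any 1 array. That of Ccne1 was lost without the B array of control KD, the A array of Tip60 KD or either Hdac6 KD array (-0.83 to -0.69; adjusted p of 0.111 to 0.121), and that of Cdkn1b without any 1 array except the A array of Tip60 KD (0.69 to 0.99; adjusted p of 0.1002 to 0.2002). Hdac6 depletion was shallower in double KD than in Hdac6 KD, as given above, and its part in these terms was not tested.

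**Figure D4:**
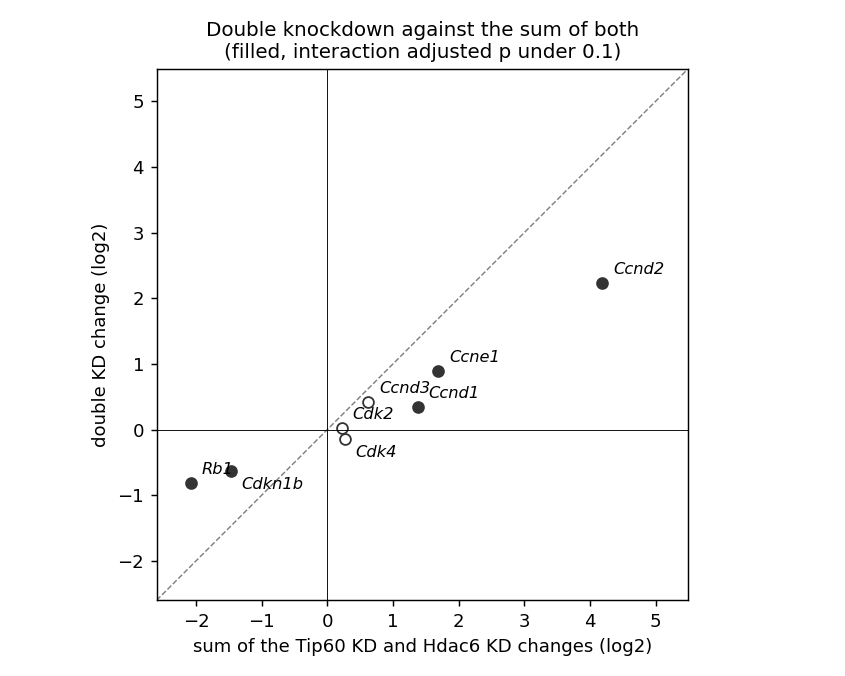
Log2 change in double KD against control KD (y axis) plotted against the sum of the Tip60 KD and Hdac6 KD changes (x axis) for the 8 measured members; filled points had an interaction adjusted p under 0.1 and the dashed line marks equality. All terms share the control arrays, and the 5 filled genes lie nearer to 0 on the y axis than on the x axis, with terms of -1.95 for Ccnd2 and 1.27 for Rb1. The controls of Ccnd2 lay at the floor, so its fill is no test.

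Genes that act around the members were followed in 5 lists. Their counts of calls without the replicate block are to be read beside the 40.6%, 30.0% and 33.8% of all probes called in Tip60, Hdac6 and double KD. Of the other Cip/Kip and Ink4 inhibitors, 5 of 6 passed the filter (Cdkn2c did not). In Tip60 KD 1 rose and 3 fell, in Hdac6 KD 0 rose and 3 fell, and in double KD 1 rose and 3 fell, with medians of -0.33, -0.37 and -0.39. Cdkn2b passed through its 2 control arrays alone, and every knockdown array with a value lay at the floor. Its direction was thus fixed by the filter and floor, and its change of -0.39 is the double KD median. Cdkn2d, an Ink4 inhibitor of Cdk4 and Cdk6, fell by 0.77, 0.73 and 0.63 in Tip60, Hdac6 and double KD (limma adjusted p = 0.0146, 0.0262 and 0.0371). Cdkn1a, which encodes the p53 target p21, fell by 0.33, 0.37 and 0.46 (adjusted p = 0.0145, 0.0153 and 0.00681). Cdkn1c, which encodes p57, went the other way. It read -0.82 and -1.05 in the controls, 0.32 and 0.11 after Tip60 KD, -0.87 and -0.93 after Hdac6 KD, and -0.25 and -0.46 after double KD, and it rose by 1.15 in Tip60 KD and 0.58 in double KD (adjusted p = 0.00209 and 0.0247). In Hdac6 KD the Cdkn1c change was 0.03 (adjusted p = 0.909).

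All 12 of the other pocket proteins, E2F and DP factors were tested. In Tip60 KD 1 rose and 4 fell, in Hdac6 KD 4 rose and 1 fell, and in double KD 3 rose and 3 fell, with medians of -0.24, 0.15 and -0.11. The shares called were 41.7%, 41.7% and 50%, and in Tip60 KD this lay near the 40.6% of all probes. With the replicate block 9, 7 and 9 of 12 were called, beside 61.0%, 53.4% and 55.9% of all probes. E2f8, a repressor E2F, lay on opposite sides of the control in the single knockdowns. It read 1.51 and 1.38 in the controls, 0.91 and 0.66 after Tip60 KD, 2.23 and 2.12 after Hdac6 KD, and 1.54 and 1.36 after double KD. It fell by 0.66 in Tip60 KD and rose by 0.73 in Hdac6 KD (limma adjusted p = 0.0103 and 0.0125), and the gap between them, -1.38, was called (adjusted p = 0.00326). E2f3, an activator E2F, rose by 0.71 in Hdac6 KD and by 0.31 in double KD (adjusted p = 0.00645 and 0.0640), with -0.13 in Tip60 KD (adjusted p = 0.365). Tfdp2, a dimer partner of E2F proteins, fell by 0.65, 0.89 and 0.47 in Tip60, Hdac6 and double KD (adjusted p = 0.0210, 0.0129 and 0.0707).

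Of the 8 tested parts and partners of the ligases that degrade p27 or cyclin E, 2 rose and 4 fell in Tip60 KD, 2 rose and 1 fell in Hdac6 KD, and 1 rose and 2 fell in double KD. Their medians were -0.22, 0.04 and -0.09. Cul1, the scaffold of the SCF ligase, rose by 0.88, 0.86 and 0.58 in Tip60, Hdac6 and double KD (limma adjusted p = 0.00200, 0.00434 and 0.0103). Usp28, a deubiquitinase that counters Fbxw7, fell by 0.90, 0.67 and 0.65 (adjusted p = 0.00494, 0.0208 and 0.0204). Fbxw7, the receptor that marks cyclin E for degradation, fell by 0.75 in Tip60 KD and 0.69 in double KD (adjusted p = 0.0240 and 0.0396), with 0.07 in Hdac6 KD (adjusted p = 0.846). Of the Cdk-activating kinase and its phosphatase counterpart, 2 of 4 genes fell after Tip60 KD, 1 of 4 after Hdac6 KD and 2 of 4 after double KD, and 0 rose. With the replicate block 3 of 4 were called in each knockdown, 1 of them higher in Hdac6 KD, beside 61.0%, 53.4% and 55.9% of all probes. Mnat1, the assembly factor of the activating kinase, fell by 0.36, 0.44 and 0.51 (adjusted p = 0.0717, 0.0539 and 0.0309). Cdc25a, the phosphatase that activates Cdk2, fell by 0.49 in Tip60 KD and 0.39 in double KD (adjusted p = 0.0376 and 0.0872), with -0.31 in Hdac6 KD (adjusted p = 0.166).

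Genes of S phase known to be driven by E2F were called in smaller shares (28.6%, 7.14% and 21.4%) than all probes. Of 14 tested, 1 rose and 3 fell in Tip60 KD, 0 rose and 1 fell in Hdac6 KD, and 0 rose and 3 fell in double KD, with medians of -0.17, -0.08 and -0.11 beside 0.07, 0.04 and 0.06 over all probes. With the replicate block 8, 6 and 6 of 14 were called, beside 61.0%, 53.4% and 55.9% of all probes. Of these, 2 were higher and 6 lower in Tip60 KD, and 1 was higher and 5 lower in each of Hdac6 KD and double KD. Rrm2, a subunit of ribonucleotide reductase, fell by 0.81 in Tip60 KD and 0.41 in double KD (limma adjusted p = 0.00137 and 0.0152), with -0.07 in Hdac6 KD (adjusted p = 0.625). Tk1, thymidine kinase, fell by 0.81 and 0.56 in Tip60 KD and double KD (adjusted p = 0.00230 and 0.0103), with 0.09 in Hdac6 KD (adjusted p = 0.580). Ccna2, cyclin A2, fell by 0.55, 0.28 and 0.46 in Tip60, Hdac6 and double KD (adjusted p = 0.00832, 0.0936 and 0.0209). Ccna2 thus fell in each knockdown in which Ccne1 rose.

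**Figure D5:**
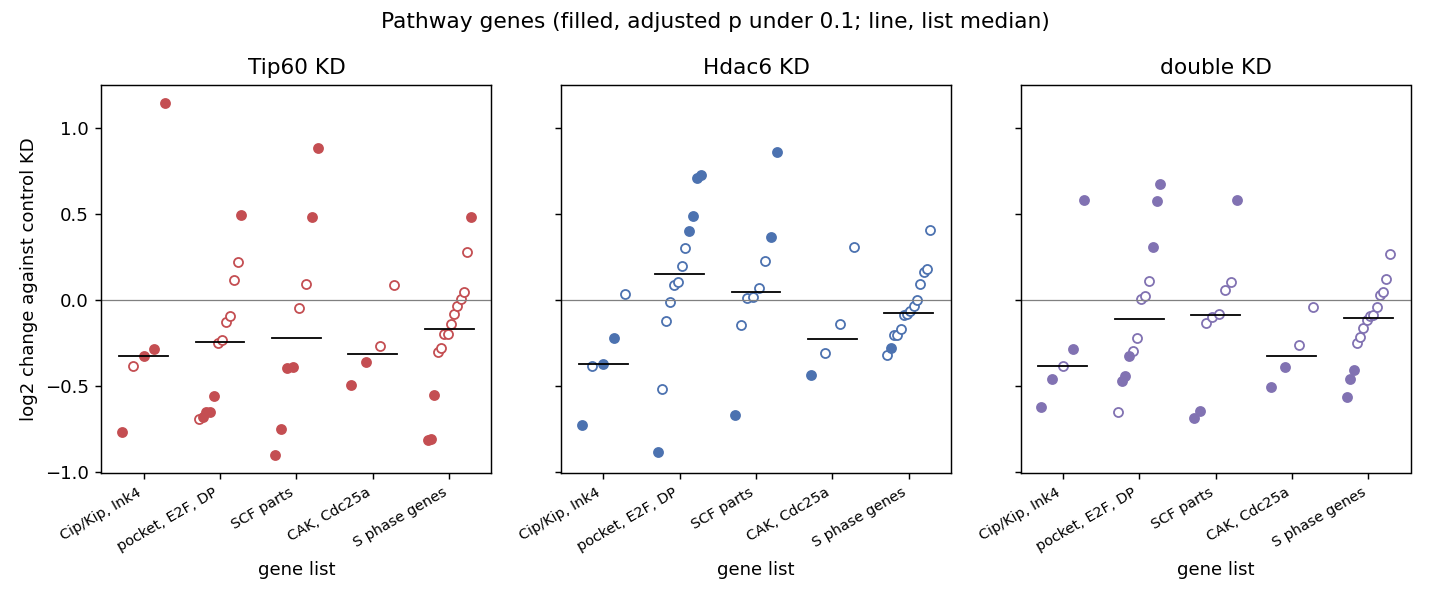
Log2 change against control KD (y axis) of each tested gene in the 5 pathway lists (x axis), in 1 panel per knockdown; filled points had a limma adjusted p under 0.1 and short lines are list medians. The S phase genes have medians of -0.17, -0.08 and -0.11, and in Tip60 KD they run from -0.815 (Rrm2) to 0.482 (Mcm5). The Cip/Kip and Ink4 list has medians of -0.33, -0.37 and -0.39, with Cdkn1c at 1.15 in Tip60 KD. In that list the direction of Cdkn2b was fixed by the filter and floor, and its value is the double KD median.

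The array pattern most like that of Ccnd2, the member with the widest span, was sought across all tested probes. Smarcd3, a subunit of BAF remodelling complexes, followed it at Pearson r = 0.9986 over the 8 arrays, Uchl1, a ubiquitin hydrolase, at 0.9983 and Usp19, a deubiquitinase, at 0.9973. Group means of Smarcd3 were -1.45 in the controls, 0.21 after Tip60 KD, -0.82 after Hdac6 KD and -0.29 after double KD. The 8 points share 4 groups of 2, and the control points of Ccnd2 lie at the floor, so these values describe likeness of group order more than of single arrays.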

How the data were processed

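Total RNA from 8 samples was amplified, labelled with Cy3 and hybridised to 1-colour mouse arrays by the authors, who extracted spots with Agilent Feature Extraction 10.7.1.1 (per the labels). The deposited signal intensity is background-subtracted by that software, which also removed a multiplicative trend on 3 arrays (both control KD, B of Tip60 KD). That step was applied to no Hdac6 KD or double KD array, so it partly followed group. The deposited log2 value table follows the median spot signal, taken before background subtraction, in rank (Spearman 1 on all 8 arrays) and served as an alternative. Probe positions and sequences come from the files (mm9). Outlier spots were left out, spots of a probe averaged, and signals divided by the array's 75th percentile and raised to 0.153 (log2 -2.71), the highest over arrays of the weakest positive signal well above background. limma 3.58.1 in R 4.3.3 fitted all 4 groups (22594 probes, 2-sided, Benjamini-Hochberg); the arrays' number, 2 per group, limits the precision. Scripts were tested on simulated data. Named genes were all members with every probe, the 2 targets, from each pathway list up to 3 called genes with the largest change, and 3 genes by likeness to the member of widest span. Members, lists and floor were chosen with earlier results of these data known. The same replicate letter marks a shared slide, and A minus B differences correlated between groups at r = 0.644 to 0.787, so letters pair arrays; a fit with slide as a block was an alternative. RefSeq accessions named 27234 of 39429 probes; other names are those of the files.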

Additional observations from a re-analysis of the deposited data

Results flagged for a closer look

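By the brightest probe of each gene, the double KD differed from the sum of the Tip60 KD and Hdac6 KD changes for 5 members. The measure was the fit's interaction term (adjusted p under 0.1), though for Ccnd2 this is no test. Ccnd1 had a term of -1.03, and its level in double KD lay next to Tip60 KD, not Hdac6 KD. Ccnd2 had a term of -1.95, an upper bound under the main settings because its control arrays lay at the floor, which also leaves its p without a measured control spread. Ccne1 had a term of -0.80 by its brighter probe and -1.46 by the other. Cdkn1b had a term of 0.84, with 0.79 within the first slide and 0.89 within the second. Rb1 had a term of 1.27, with 1.25 and 1.29 within the slides. With 2 samples per group, no search for single outlying arrays was made.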

How the results depend on the processing

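By the brightest probe of each member, each call against control KD kept its direction under the alternatives that gave a value (22, or 20 for Ccnd2), and no called change was reversed. Other probes and the pathway genes were recomputed only with the slide block. The background correction, normalisation, floor, filter, probe choice, threshold, arrays fitted, slide block and each array left out were varied, 1 at a time except where the block was joined to removal of the probe GC trend. Calls at the edge moved: Cdk2 and Cdkn1b in Hdac6 KD were kept under 6 and 8 alternatives, and Ccnd1, Ccnd3 and Cdkn1b in double KD under 15, 17 and 19. Under the strict filter and with values under the floor left missing, Ccnd2 had no value against control KD. With 2 arrays per group, a left-out array leaves 1, assumed to vary as the other groups do. Dim probes limit the rest: Ccne2 and Cdk6 could not be measured.

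With the replicate block (slide), probes called became 13793 for Tip60 KD, 12055 for Hdac6 KD and 12625 for double KD against control KD, from 9183, 6770 and 7636, and 10785 for the interaction, from 5257. For Tip60 KD less Hdac6 KD they became 9569 from 5410, for double KD less Tip60 KD 6247 from 1068, and for double KD less Hdac6 KD 6631 from 2294, while members became 8, 3 and 6 from 4, 1 and 3. The replicate block with the probe GC trend removed gave 11714 (Hdac6 KD), 12333 (double KD) and 10273 (interaction) probes, and for the same 3 pairs 9389, 5730 and 6711 probes and 8, 2 and 6 members. The block otherwise changed members called against control KD by 1 at most.

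For double KD less Tip60 KD, members called were 0 with normexp, the series matrix, the low floor, the strict filter and only the arrays compared. Its probes called were 1 with normexp, 157 with the series matrix, 1662 with quantile normalisation, 1706 with the strict filter, 672 with 1 probe per gene, 705 with the mean of a gene's probes, 154 at adjusted p under 0.05, and 0 with only the arrays compared. For double KD less Hdac6 KD, members were 1 with normexp, 5 with the mean of a gene's probes and 0 with only the arrays compared, and probes were 1342 with normexp, 1186 with the series matrix, 1169 at 0.05 and 0 with only the arrays compared. For Tip60 KD less Hdac6 KD, only the arrays compared gave 2 members and 3333 probes. For the interaction, no filter on dim probes gave 3 members and 0.05 gave 3392 probes. The cause of these shifts was not tested.

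Leaving out 1 array at a time gave 6 to 6 members and 6889 to 8845 probes for Tip60 KD, 4 to 4 members and 3523 to 6325 probes for Hdac6 KD, and 3 to 6 members and 4963 to 7143 probes for double KD, each against control KD. It gave 1 to 4 members and 2657 to 4852 probes for Tip60 KD less Hdac6 KD, 0 to 0 members and 0 to 15 probes for double KD less Tip60 KD, 1 to 3 members and 231 to 1657 probes for double KD less Hdac6 KD, and 3 to 4 members and 2870 to 3663 probes for the interaction. An alternative added after seeing the data, without the software's multiplicative trend correction, was among the 22.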
